A study of Mus musculus with 6 samples.

Results

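The 10 genes described here make, store and break down triglyceride in the liver: Gpam, Agpat2, Lpin1, Lpin2, Dgat1, Dgat2, Mogat1, Cidec, Plin2 and Pnpla2. They are a list of named genes, not picked by a measured cutoff, and all 10 were among the 18193 genes measured. The list was chosen with earlier results of these data known, so its counts of calls are not independent of the data. RNA came from whole livers of CYP2D6-humanized mice, C57BL/6 animals with a transgene for the human drug-metabolising enzyme CYP2D6, which every group carried. Each of 3 stages (pre-pregnancy, pregnancy day 21, postpartum day 7) was represented by 2 livers labelled as biological replicates. Every liver had its own array, which gave 6 arrays. The sources used here do not give age, feeding state or hour of collection, and stage cannot be told apart from these if they differed. The labels do not say whether replicate livers came from littermates, so p-values measure only the spread between these samples. Values are log2 units of probe set brightness as deposited by the authors. A probe set is a group of short probes for 1 transcript. Where a gene had several, the one brightest on average was used, and the other probe sets of the 10 genes are given beside it. For called genes of the other pathway lists, other probe sets are given where they end the call.

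Triglyceride is assembled on a glycerol backbone, mostly in the endoplasmic reticulum. Glycerol-3-phosphate acyltransferases such as Gpam add the first fatty acid and acylglycerolphosphate acyltransferases such as Agpat2 the next. Lipins then remove the phosphate to give diacylglycerol, to which Dgat1 or Dgat2 add the last fatty acid, while Mogat1 makes diacylglycerol from monoacylglycerol. The product is stored in lipid droplets, which Plin2 coats and Cidec enlarges, and Pnpla2, the adipose triglyceride lipase, starts its breakdown. In hepatocytes these droplets supply fatty acids for oxidation and for the triglyceride secreted in very-low-density lipoprotein.

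Array medians lay between 5.09 and 5.15 and lower quartiles between 3.91 and 4, and the number of arrays limits the precision. The correlation between replicate arrays, over genes, was 0.9969 for pre-pregnancy, 0.9941 for pregnancy and 0.9964 for postpartum livers. The hepatocyte gene Alb stood between 14.87 and 14.98 on the 6 arrays, as a liver label requires. Differences were tested with limma, two-sided, with Benjamini-Hochberg adjusted p-values over all genes and a threshold of 0.05. SE is the moderated standard error of a log2 difference.

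Of the 10 genes, 1 was called in pregnancy against pre-pregnancy, where 13.7% of all genes were. Between postpartum and pregnancy 1 was called, against 3.29% of all genes, and between postpartum and pre-pregnancy 3 were, against 7.66%. The called genes were Pnpla2, higher in both later stages than before pregnancy, Gpam, higher postpartum than at either other stage, and Lpin1, lower postpartum than before pregnancy. The median difference of the 10 genes was -0.0375 in pregnancy against pre-pregnancy, 0.095 in postpartum against pregnancy and 0.0575 in postpartum against pre-pregnancy. The medians of all genes in the same comparisons were 0.045, -0.01 and 0.025. These medians cover genes that moved in opposite directions. Each stage enters more than 1 of these comparisons, which therefore share arrays.

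**Figure D1:**
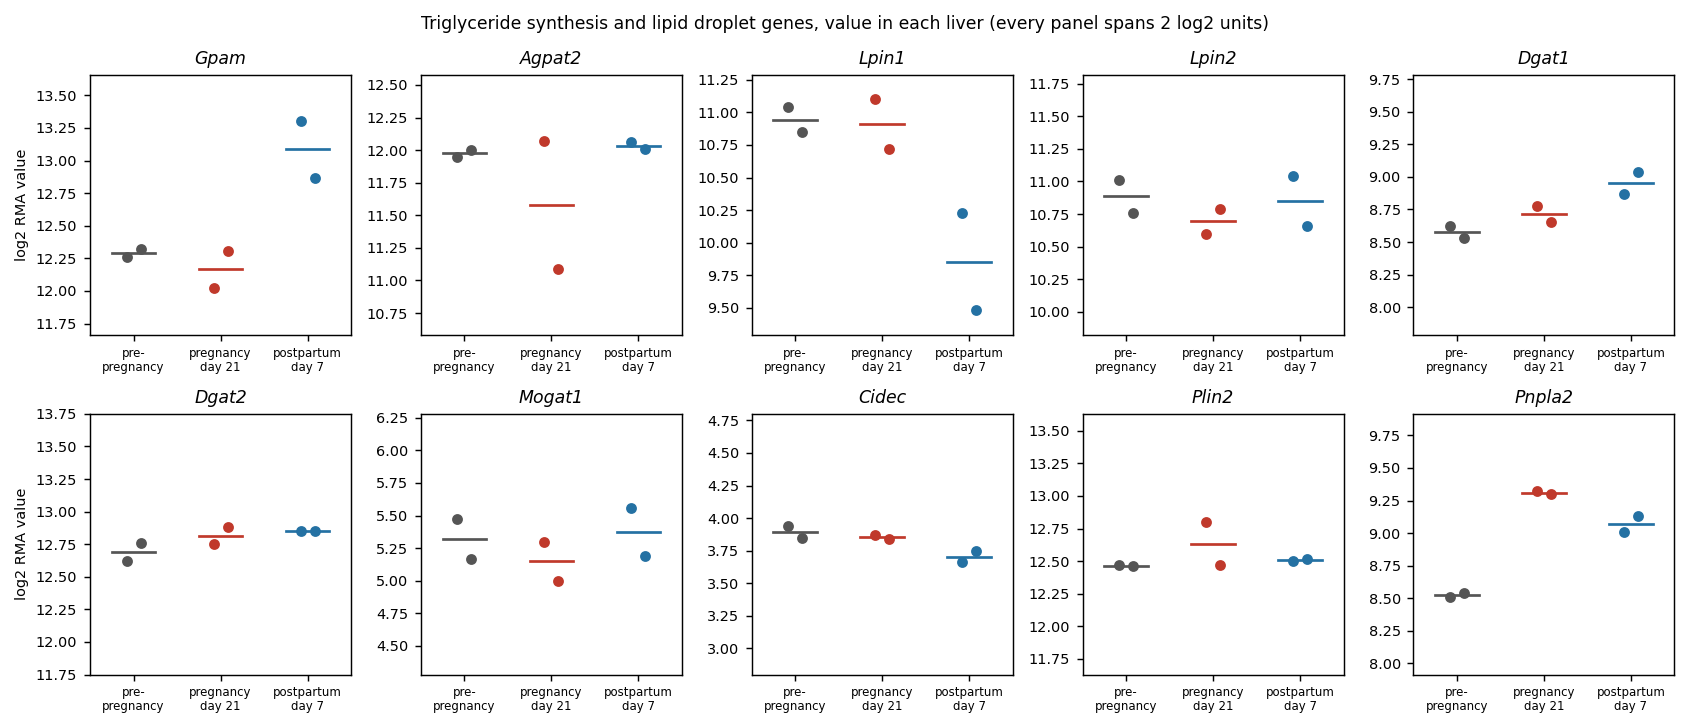
Log2 value of each of the 10 genes (y axis, 1 panel per gene) in each liver before pregnancy, on day 21 of pregnancy and on day 7 postpartum (x axis). Points are single livers and bars are the mean of 2. Both postpartum points of Gpam lie above, and both of Lpin1 below, the 4 other points of that gene, and the 2 pre-pregnancy points of Pnpla2 lie below its 4 others.

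Gpam, at the mitochondrial outer membrane, carries out the first acylation. Gpam stood at 12.26 and 12.32 before pregnancy, at 12.02 and 12.31 on day 21 and at 13.3 and 12.87 on day 7 postpartum. Both postpartum livers were above all 4 others, and pregnant and pre-pregnancy livers overlapped. Gpam rose 1.89-fold postpartum against pregnancy (log2 difference 0.92 ± 0.163 SE, limma adjusted p = 0.0298). It rose 1.74-fold postpartum against pre-pregnancy (0.795 ± 0.163 SE, limma adjusted p = 0.0287). Pregnancy against pre-pregnancy gave a log2 difference of -0.125 (95% interval -0.50 to 0.25, limma adjusted p = 0.64).

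The size of the Gpam rise depended on the probe set and its call on single arrays. The other, dimmer probe set of Gpam read 6.81 and 7 before pregnancy, 6.57 and 6.19 in pregnant livers and 7.7 and 6.54 postpartum. There postpartum replicate 1 was the highest liver, and replicate 2 lay within the range of the other stages. That probe set differed by 0.74 postpartum against pregnancy (limma adjusted p = 0.267) and by 0.215 postpartum against pre-pregnancy (0.791). With the mean of both probe sets the differences were 0.83 (limma adjusted p = 0.108) and 0.505 (0.243). The call of the brighter probe set against pregnancy was kept without postpartum replicate 2 (limma adjusted p = 0.0387). It was lost without either pre-pregnancy array (limma adjusted p = 0.0808 for each), pregnancy replicate 1 (0.0803), pregnancy replicate 2 (0.0509) or postpartum replicate 1 (0.129). The call against pre-pregnancy was lost without pre-pregnancy replicate 1 (limma adjusted p = 0.204), pre-pregnancy replicate 2 (0.121) or postpartum replicate 1 (0.11).

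Of the other enzymes of this step, Gpat3 fell where Gpam rose. Gpat3, an acyltransferase of the endoplasmic reticulum, stood at 9.3 and 9.43 before pregnancy, at 9.73 and 9.25 in pregnancy and at 8.73 and 8.62 postpartum. Both postpartum livers were the lowest. Gpat3 fell postpartum against pregnancy (log2 difference -0.815 ± 0.161 SE, limma adjusted p = 0.0408) and against pre-pregnancy (-0.69, limma adjusted p = 0.0425). The call against pregnancy was kept without pregnancy replicate 2 (limma adjusted p = 0.0176) and lost without any other array (0.071 to 0.19). The call against pre-pregnancy was lost without any array of those 2 stages (0.111 to 0.211). Gpat4, of the same compartment, stood at 8.53 and 8.73 before pregnancy, 8.42 and 8.28 in pregnant livers and 8.38 and 8.71 postpartum, with no call. Gpat2 was dim at every stage, at 3.92 to 4.3.

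The promoters of Gpam, Lpin1 and Pnpla2 are shown because the results turn on these 3 genes. Each window runs from 250 bases before to 50 after a transcript start, 5′ to 3′ on the gene's strand, from RefSeq in build GRCm38.p6. RefSeq windows matched 8 of the 10 genes. Capitals mark matches, on either strand, to the CCAAT box (CCAAT), the GC box (GGGCGG) or the nuclear receptor motif (AGGTCA). That motif is only part of a full receptor element, which was not searched for. Gpam has an upstream and a downstream start.
Gpam upstream start, chr19:55127189-55127488, minus strand: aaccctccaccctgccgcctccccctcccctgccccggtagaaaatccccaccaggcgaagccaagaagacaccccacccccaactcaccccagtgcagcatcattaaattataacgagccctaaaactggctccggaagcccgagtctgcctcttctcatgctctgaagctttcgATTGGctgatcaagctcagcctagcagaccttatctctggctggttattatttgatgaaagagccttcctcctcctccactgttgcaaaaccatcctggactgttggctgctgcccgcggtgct
Gpam downstream start, chr19:55099428-55099727, minus strand: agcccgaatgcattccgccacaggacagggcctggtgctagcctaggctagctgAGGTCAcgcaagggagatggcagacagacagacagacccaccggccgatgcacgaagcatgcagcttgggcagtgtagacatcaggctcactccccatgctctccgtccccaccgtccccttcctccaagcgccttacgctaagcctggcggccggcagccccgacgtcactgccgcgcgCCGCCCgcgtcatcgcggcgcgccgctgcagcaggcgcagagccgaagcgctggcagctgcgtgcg
Lpin1, chr12:16610917-16611216, minus strand: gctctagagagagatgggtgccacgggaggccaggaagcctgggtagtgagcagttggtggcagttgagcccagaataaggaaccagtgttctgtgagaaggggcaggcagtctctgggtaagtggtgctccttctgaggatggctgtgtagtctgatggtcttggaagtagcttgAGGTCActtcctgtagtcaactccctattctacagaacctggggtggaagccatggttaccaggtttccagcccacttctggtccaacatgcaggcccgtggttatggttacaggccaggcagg
Pnpla2, chr7:141454938-141455237, plus strand: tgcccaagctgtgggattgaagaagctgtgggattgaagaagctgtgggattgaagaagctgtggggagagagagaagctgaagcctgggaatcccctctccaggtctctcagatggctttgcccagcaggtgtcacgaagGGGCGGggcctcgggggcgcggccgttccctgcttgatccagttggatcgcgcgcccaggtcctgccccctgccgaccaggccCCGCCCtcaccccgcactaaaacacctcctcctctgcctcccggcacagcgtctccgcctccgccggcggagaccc
The upstream Gpam window holds a CCAAT box, and the downstream one holds a GC box and a nuclear receptor motif. The Lpin1 window holds a nuclear receptor motif and the Pnpla2 window holds 2 GC boxes, so no motif searched was found in all 3 genes. Of 32851 mouse promoter windows of this length, 37.4% hold CCAAT, 35.7% hold GGGCGG and 16.3% hold AGGTCA. The E-box CACGTG, the forkhead site GTAAACA and the sterol regulatory element TCACNCCAC, which 7.15%, 3.65% and 1.24% of all windows hold, were not in these 4 windows. A match is a run of letters and does not show that a factor binds.

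Agpat2 makes phosphatidic acid from the product of Gpam. It stood at 11.95 and 12 before pregnancy, at 12.07 and 11.09 in pregnancy and at 12.06 and 12.01 postpartum. Pregnancy replicate 2 was low and the other 5 livers were nearly level. The log2 difference was -0.395 ± 0.267 SE for pregnancy against pre-pregnancy (limma adjusted p = 0.351) and 0.455 for postpartum against pregnancy (limma adjusted p = 0.382). Without pregnancy replicate 1 these were -0.885 (limma adjusted p = 0.00921) and 0.945 (0.0148). Without pregnancy replicate 2 they were 0.095 (limma adjusted p = 0.661) and -0.035 (0.917), so the sign for Agpat2 rested on which pregnant liver was used. Postpartum against pre-pregnancy Agpat2 stood at 0.06 (95% interval -0.56 to 0.68). The pregnant livers play no part in that difference but widen its interval, since the fit shared the spread over all stages. The standard deviation of Agpat2 was 0.693 in pregnant livers and 0.0354 in each other stage.

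Lpin1 is a phosphatidate phosphatase that, in mouse liver, also acts in the nucleus as a coactivator of fatty acid oxidation genes. It stood at 11.04 and 10.85 before pregnancy, at 11.1 and 10.72 in pregnancy and at 10.23 and 9.48 postpartum. Both postpartum livers were below all 4 others, replicate 2 the further. Lpin1 fell 2.13-fold postpartum against pre-pregnancy (log2 difference -1.09 ± 0.238 SE, limma adjusted p = 0.0348). Postpartum against pregnancy the log2 difference was -1.055 (95% interval -1.61 to -0.50), which missed the threshold (limma adjusted p = 0.0578). Pregnancy against pre-pregnancy gave -0.035 (95% interval -0.59 to 0.52, limma adjusted p = 0.936).

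The other Lpin1 probe set ran alike, at 10.43 and 10.32 before pregnancy, 10.44 and 10.14 in pregnant livers and 9.66 and 9.13 postpartum. It was called lower postpartum against pre-pregnancy (-0.98, limma adjusted p = 0.0193 over all probe sets) and against pregnancy (-0.895, 0.0492). The call of the brighter probe set against pre-pregnancy was lost without pre-pregnancy replicate 1 (limma adjusted p = 0.245), pre-pregnancy replicate 2 (0.125) or postpartum replicate 2 (0.138). It was also lost with a trended and robust variance (limma adjusted p = 0.0638). Without postpartum replicate 1 Lpin1 was called lower against pregnancy too (-1.43, limma adjusted p = 0.0379).

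Lpin2, the other main lipin of adult liver, stood at 11.01 and 10.76 before pregnancy, at 10.6 and 10.79 in pregnancy and at 11.04 and 10.66 postpartum. The stages overlapped and Lpin2 had no call. Postpartum against pre-pregnancy its log2 difference was -0.035 (95% interval -0.40 to 0.33), while that of Lpin1 was -1.09. The difference between the lipins was not tested. The other 3 probe sets of Lpin2 gave -0.185, 0.135 and 0.725 in that comparison, the last from a dim set at 4.98 to 6.23, and no call. Lpin3, the third lipin, was dim (4.92 to 5.46) and had no call.

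**Figure D2:**
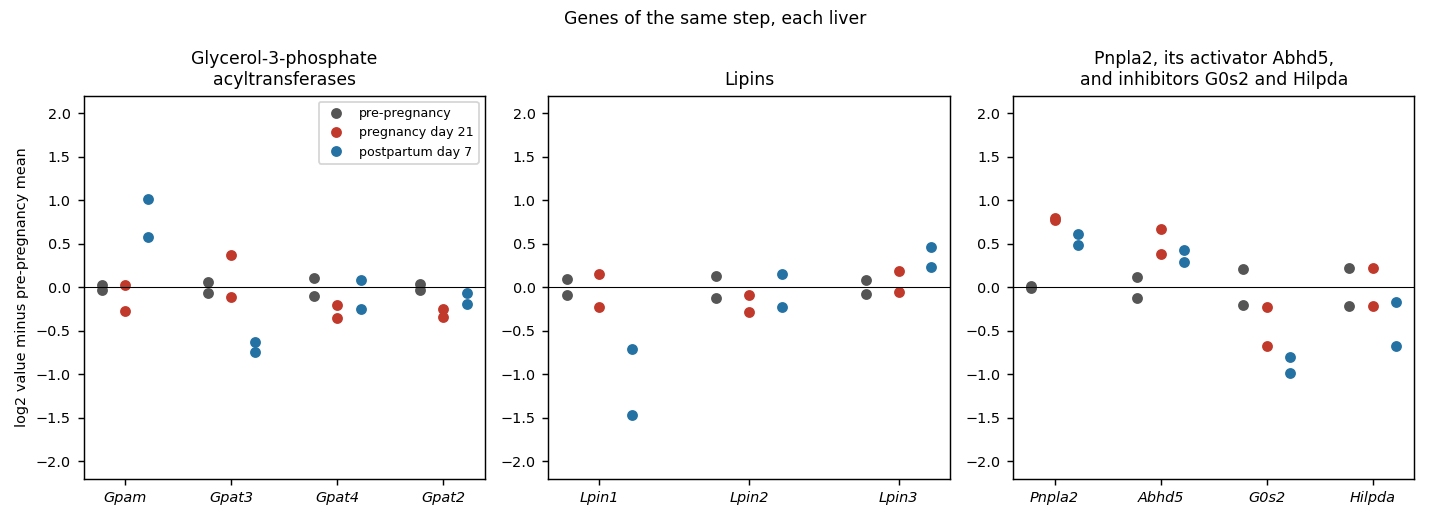
Log2 value minus the gene's pre-pregnancy mean (y axis) for Gpam, Lpin1, Pnpla2 and genes of the same step (x axis). Points are single livers, coloured by stage (grey pre-pregnancy, red pregnancy day 21, blue postpartum day 7). Both postpartum points of Gpam lie above and both of Gpat3 and Lpin1 below that gene's other points, while the stages of Lpin2 overlap.

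Mogat1, which acylates monoacylglycerol, was dim in every liver. It stood at 5.47 and 5.17 before pregnancy, at 5.3 and 5 in pregnancy and at 5.56 and 5.19 postpartum, close to the array medians. The stages overlapped, and its log2 differences of -0.17, 0.225 and 0.055 were not called. Arrays compress differences near background, so a change of Mogat1 may be larger than these values show.

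Dgat1 and Dgat2 catalyse the last acylation and are unrelated in sequence. Dgat1 stood at 8.62 and 8.53 before pregnancy, at 8.78 and 8.65 in pregnancy and at 8.87 and 9.04 postpartum. Each stage lay above the stage before it without overlap, as did the arrays of 59.6% of all genes in pregnancy against pre-pregnancy and 50.1% in postpartum against pregnancy, in either direction. Postpartum against pre-pregnancy Dgat1 differed 1.3-fold (0.38 ± 0.112 SE, 95% interval 0.12 to 0.64) and missed the threshold (limma adjusted p = 0.0838). The probes of this Dgat1 set may also match transcripts of other genes, and a dim second set (4.48 to 4.72) differed by 0.01, -0.025 and -0.015.

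Dgat2 was bright and nearly level, at 12.62 and 12.76 before pregnancy, 12.75 and 12.88 in pregnant livers and 12.85 in both postpartum livers. Its widest log2 difference was 0.16, postpartum against pre-pregnancy (95% interval -0.09 to 0.41, limma adjusted p = 0.443). The other Dgat2 probe set read 10.89 and 10.94 before pregnancy, 11.07 and 11.31 in pregnant livers and 10.8 and 10.74 postpartum, with both pregnant livers highest. There postpartum against pregnancy gave -0.42 (limma adjusted p = 0.107), against 0.035 (0.89) for the brighter set. The probe sets of Dgat2 thus disagreed in sign after birth, and neither was called.

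Plin2 is the main coat protein of hepatocyte lipid droplets, and the protein is stable only on lipid. It stood at 12.47 and 12.46 before pregnancy, at 12.8 and 12.47 in pregnancy and at 12.5 and 12.52 postpartum. Pregnancy replicate 1 was highest and the other 5 livers lay within 0.06 of each other. The log2 difference was 0.17 in pregnancy against pre-pregnancy (95% interval -0.12 to 0.46, limma adjusted p = 0.401), -0.125 in postpartum against pregnancy (-0.42 to 0.17, 0.63) and 0.045 in postpartum against pre-pregnancy (-0.25 to 0.34, 0.896).

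Cidec, which fuses droplets and is known from fat cells and fatty liver, stood at 3.94 and 3.85 before pregnancy, at 3.87 and 3.84 in pregnancy and at 3.66 and 3.75 postpartum. These values lie close to the arrays' lower quartiles, near background. Both postpartum livers were lowest, but the log2 difference of -0.19 against pre-pregnancy was not called (limma adjusted p = 0.322), and no fold is given at this level.

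Pnpla2 removes the first fatty acid from stored triglyceride. It stood at 8.51 and 8.54 before pregnancy, at 9.32 and 9.3 in pregnancy and at 9.01 and 9.13 postpartum. Both pre-pregnancy livers were lowest and both pregnant livers highest, with no overlap between any stages. Between postpartum and pre-pregnancy, 52.6% of all genes did not overlap. Pnpla2 rose 1.72-fold in pregnancy against pre-pregnancy (log2 difference 0.785 ± 0.101 SE, limma adjusted p = 0.00411). It was still 1.46-fold higher postpartum than before pregnancy (0.545 ± 0.101 SE, limma adjusted p = 0.0211). Postpartum against pregnancy gave -0.24 (limma adjusted p = 0.228). The call in pregnancy was lost without pre-pregnancy replicate 1 (0.77, limma adjusted p = 0.0516) and kept without each of the other 5 arrays. The postpartum call was lost without pre-pregnancy replicate 1 (limma adjusted p = 0.156), pre-pregnancy replicate 2 (0.0901), postpartum replicate 1 (0.0608) or postpartum replicate 2 (0.139). A dim second probe set read 3.66 and 3.99 before pregnancy, 4.33 and 4.1 in pregnant livers and 4.2 and 4.03 postpartum, in the same order of means with no call.

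**Figure D3:**
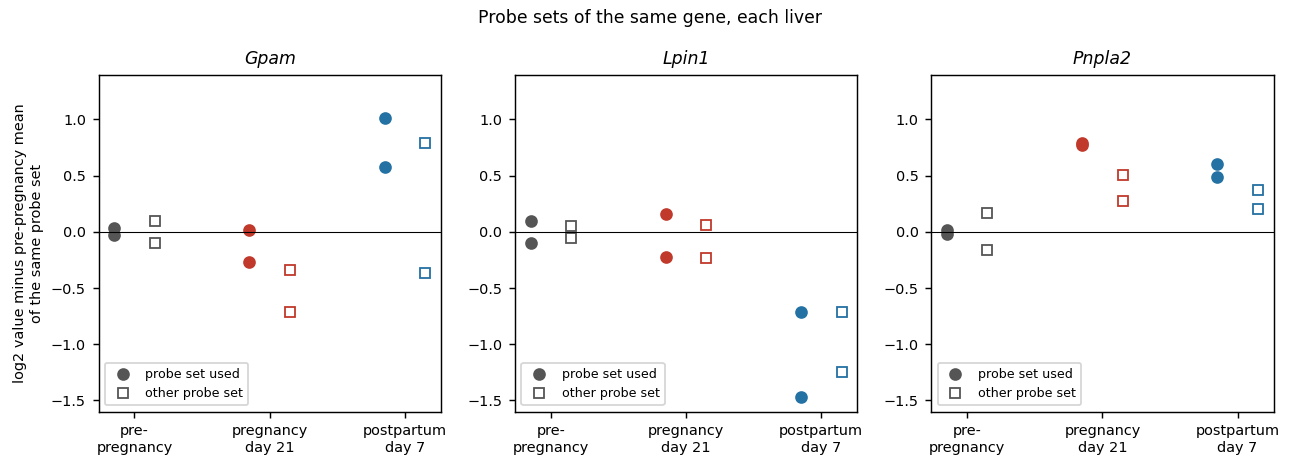
Log2 value minus the pre-pregnancy mean of the same probe set (y axis) for the 2 probe sets each of Gpam, Lpin1 and Pnpla2 in each liver before pregnancy, on day 21 of pregnancy and on day 7 postpartum (x axis). Filled circles are the probe set used and open squares the other. Both Lpin1 probe sets are lowest postpartum, while the other Gpam probe set has its postpartum livers on either side of 0.

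The known partners of Pnpla2 were measured too. Abhd5, its coactivator, stood at 8.96 and 8.72 before pregnancy, at 9.51 and 9.22 in pregnancy and at 9.27 and 9.13 postpartum, again lowest before pregnancy. Abhd5 rose in pregnancy (log2 difference 0.525 ± 0.14 SE, limma adjusted p = 0.0453). That call was kept without pregnancy replicate 2 (limma adjusted p = 0.0487) and lost without any other array (0.0673 to 0.195). G0s2, its inhibitor, stood at 10.28 and 10.7 before pregnancy, at 10.26 and 9.82 in pregnancy and at 9.69 and 9.5 postpartum. Both postpartum livers were lowest, and G0s2 fell postpartum against pre-pregnancy (-0.895 ± 0.188 SE, limma adjusted p = 0.0304). The call was lost without either pre-pregnancy array (limma adjusted p = 0.104 and 0.151) or either postpartum array (0.0789 and 0.174). The other 2 probe sets of Abhd5 gave 0.395 (limma adjusted p = 0.0554) and 0.165 (0.49) in pregnancy against pre-pregnancy, neither called. Postpartum against pre-pregnancy Abhd5 differed by 0.36 (limma adjusted p = 0.171), while 1 of its other sets was called higher (0.68, 0.0123), as was the mean of all sets (0.397, 0.0405). Hilpda, another inhibitor of the lipase, lay between 5.51 and 6.41 with no call.

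**Figure D4:**
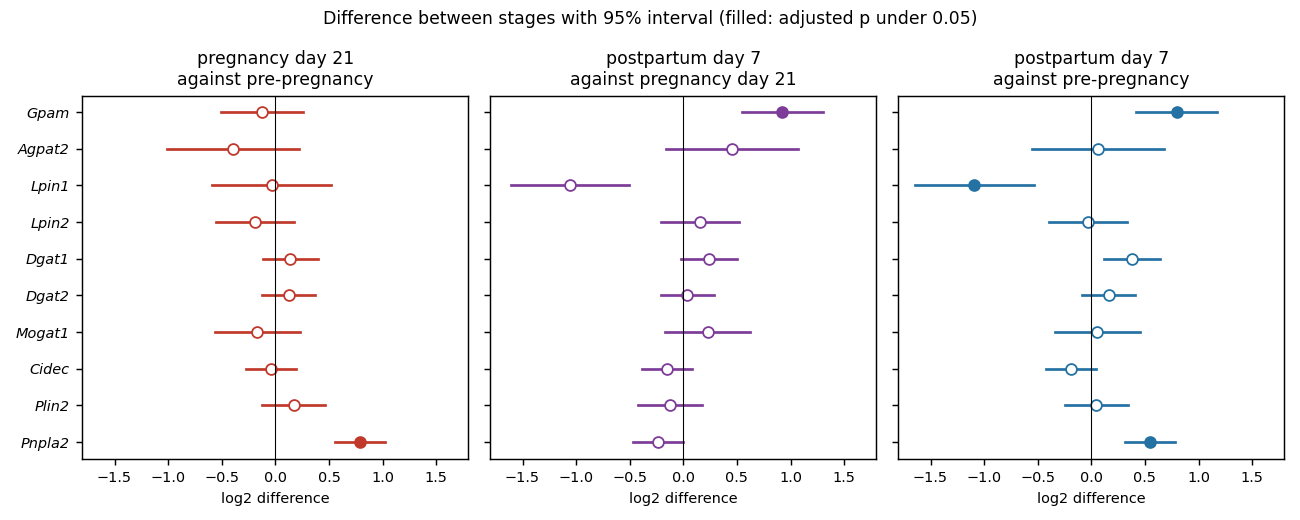
Log2 difference (x axis) of each of the 10 genes (y axis) in each comparison, with its 95% interval as a bar. Filled points pass the limma threshold. Pnpla2 stands at 0.785 in pregnancy against pre-pregnancy, Gpam at 0.92 in postpartum against pregnancy and Lpin1 at -1.09 in postpartum against pre-pregnancy.

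Pathway genes outside the 10 were counted from lists. Of 14 other measured glycerolipid synthesis genes, 5 rose and 0 fell in pregnancy against pre-pregnancy, where 5.46% of all genes rose and 8.25% fell. They were Gpd1, which makes glycerol-3-phosphate (0.995 ± 0.114 SE, limma adjusted p = 0.00287), Agpat3 (0.64 ± 0.102), Lclat1 (0.585 ± 0.109), Plpp2 (0.525) and Agpat4 (0.465), the last named to complete the count after its value was seen. Gpd1 stood at 10.18 and 10.1 before pregnancy, at 11.25 and 11.02 in pregnancy and at 11.16 and 11.17 postpartum, lowest before pregnancy. Its other 3 probe sets gave 0.255 (limma adjusted p = 0.227), 0.335 (0.0685) and -0.025 (0.898) in pregnancy against pre-pregnancy, none called. The mean of all sets was called (0.39, limma adjusted p = 0.0312). Among single sets the call rests on 1, and the size of the rise is not settled. The median of the 14 was 0.1. Postpartum against pregnancy 0 rose and 1 (Gpat3) fell, where 2.41% of all genes rose and 0.879% fell. Postpartum against pre-pregnancy Gpd1 (1.025), Plpp2 (0.615) and Lclat1 (0.465) rose and Gpat3 fell, where 3.91% of all genes rose and 3.75% fell. The list's medians in these comparisons were -0.0325 and 0.02. By the probe set used, Gpd1 kept its call in pregnancy without each array in turn. Without pre-pregnancy replicate 1 the list's other calls against pre-pregnancy were lost (limma adjusted p = 0.0587 to 0.229), and without pre-pregnancy replicate 2 all of them but that of Gpd1 were (0.054 to 0.184). Agpat4 lost its call without any 1 array (limma adjusted p = 0.0527 to 0.14) and Plpp2 in pregnancy also without pregnancy replicate 1 (0.0688). Postpartum, Plpp2 and Lclat1 also lost theirs without either postpartum array (limma adjusted p = 0.0724 to 0.186). In pregnancy against pre-pregnancy the other Plpp2 probe set gave 0.04 and the other Agpat4 probe set 0.225 (limma adjusted p = 0.857 and 0.381). The other 3 sets of Agpat3 gave 1.13 (limma adjusted p = 0.00115), 0.57 (0.0201) and 0.4 (0.154). Postpartum against pre-pregnancy the other Plpp2 set gave 0, and the mean of the Gpd1 sets gave 0.3425 (limma adjusted p = 0.0648).

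Of 16 other lipid droplet proteins, 0 rose and 1, Mettl7b, fell in pregnancy against pre-pregnancy, where 5.46% of all genes rose and 8.25% fell. Mettl7b differed by -0.45 ± 0.11 SE (limma adjusted p = 0.035), and the list median was 0.025. Postpartum against pregnancy none (0) of the 16 was called by limma (3 at an unadjusted p under 0.05), where 3.29% of all genes were. The list median there was 0.06. Postpartum against pre-pregnancy Plin3, a coat protein of small droplets, rose (0.715 ± 0.133 SE, limma adjusted p = 0.0211), with a list median of 0.0225. Plin3 was the 1 call of the 16, where 3.91% of all genes rose and 3.75% fell. Plin3 stood at 8.19 and 8.21 before pregnancy, at 8.52 and 8.37 in pregnancy and at 9.08 and 8.75 postpartum, without overlap between stages. Between any pair of stages, 50.1% to 59.6% of all genes did not overlap either. Plin3 lost its call without pre-pregnancy replicate 1 (limma adjusted p = 0.163), pre-pregnancy replicate 2 (0.102) or postpartum replicate 1 (0.0862). That of Mettl7b was lost without any 1 of the 6 arrays (0.0521 to 0.15).

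Of 9 other lipolysis genes, Abhd5 was the 1 called in pregnancy against pre-pregnancy, where 13.7% of all genes were called. The list median was -0.185. None (0) of the 9 was called by limma in postpartum against pregnancy (2 at an unadjusted p under 0.05), where 3.29% of all genes were. The list median there was -0.12. Postpartum against pre-pregnancy Lipe, hormone-sensitive lipase, rose (0.52, limma adjusted p = 0.043), while G0s2 and Ces1d, a carboxylesterase, fell (-0.41 for Ces1d, limma adjusted p = 0.0479), with a list median of -0.11. Of all genes, 3.91% rose and 3.75% fell in that comparison. The other Lipe probe set gave 0.15 (limma adjusted p = 0.612). Lipe and Ces1d lost their calls without any pre-pregnancy or postpartum array (0.0741 to 0.264 and 0.154 to 0.227).

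The genes most like Lpin1 and Gpam, the members with the widest range of stage means (1.09 and 0.92), were picked by Pearson's r over the 6 arrays among 704 genes whose stage means spanned at least 1. For Lpin1 they were N4bp2l1 (0.953), 4833411C07Rik (0.94) and Golm2 (0.937). For Gpam they were Acacb, the acetyl-CoA carboxylase whose product restrains mitochondrial fatty acid uptake (0.998), Rpia (0.964) and Cyp2b10 (0.961). Acacb stood at 9.3 and 9.43 before pregnancy, at 8.86 and 9.49 in pregnancy and at 11.02 and 10.36 postpartum, with postpartum replicate 1 highest, as for Gpam. These coefficients describe 6 arrays in 3 stages and carry no test.

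Markers of other cells were read because Pnpla2, Cidec and Lipe are abundant in fat and a liver sample can hold other cells. In bulk samples, fewer cells of a type and less RNA per cell cannot be told apart. Adipoq, the defining adipocyte hormone, lay below the lower quartile on all 6 arrays. The log2 of the summed levels of 8 of 10 adipocyte markers was 14.717 and 14.814 before pregnancy, 14.692 and 14.579 in pregnant livers and 14.517 and 14.267 postpartum. That sum is mostly Car3 (13.86 to 14.2) and Pck1, and hardly reflects Adipoq (3.38 to 3.6) or Lep (3.86 to 4.26). Pck1, which hepatocytes also make, stood at 13.03 and 13.22 before pregnancy, at 13.27 and 13.05 in pregnancy and at 12.77 and 12.09 postpartum. Fabp4, at 7.43 and 7.72 before pregnancy, 7.57 and 7.16 in pregnant livers and 8.14 and 7.72 postpartum, did not follow the sum, and Lipe rose postpartum against pre-pregnancy. Of these 8, 0 were called by limma in pregnancy against pre-pregnancy (1 at an unadjusted p under 0.05), where 13.7% of all genes were called. The summed hepatocyte markers (8 of 10) lay between 17.092 and 17.185. Among them Asgr1 rose in pregnancy against pre-pregnancy (0.395, limma adjusted p = 0.0492) and Hp fell in postpartum against pregnancy (-0.6, 0.0372). Both calls were lost without some single arrays. The summed endothelial markers (10 of 10) were 12.73 and 12.43 before pregnancy, 12.207 and 12.195 in pregnant livers and 12.2 and 12.124 postpartum, and Kdr, Emcn and Tek fell in pregnancy, where Pnpla2 rose. Of 10 stellate markers Lrat fell, and of 10 Kupffer cell markers Timd4 and Lyz2 fell, in the same comparison. Of all genes 5.46% rose and 8.25% fell there. The stellate marker Rgs5 differed by 0.235 and the Kupffer cell marker Marco by 0.655, neither called (limma adjusted p = 0.17 and 0.0695). The list medians were -0.145 for stellate, -0.2675 for Kupffer cell and -0.385 for endothelial markers. Of the 10 endothelial markers, 8 had an unadjusted limma p under 0.05 there. Postpartum against pre-pregnancy the endothelial median was -0.345, with 6 at an unadjusted limma p under 0.05 and 0 called. Marco rose postpartum against pre-pregnancy (1.03, limma adjusted p = 0.0248), where Timd4 was still lower (-0.61, 0.0147). The calls of Kdr, Emcn, Tek, Lrat, Lyz2 and Marco, and of Timd4 postpartum, were each lost without some single arrays. Of 8 measured pancreatic acinar markers, Cela3b rose (3.035, limma adjusted p = 0.000227) and Cela1 fell (-1.18, 0.00167) in pregnancy against pre-pregnancy. The part of these cell markers in the results was not tested.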

How the data were processed

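Total RNA of each liver was labelled with biotin and hybridised to 1 Affymetrix array. The authors deposited log2 values of 45101 probe sets per array, made with RMA and Affymetrix Power Tools, per the submitters' processing notes; the sources used here give no versions, settings or scale, and the log2 base was inferred from values of 2.69 to 15.05. RMA usually gives arrays a common distribution, which would hide a shift shared by most genes.

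Of the probe sets, 34945 had 1 gene symbol, 932 several and 9160 none, and 64 were controls. The probe set with the highest mean stood for each of 18193 genes. limma 3.58.1 in R 4.3.3 fitted a mean per stage over 6 arrays (3 residual and 4.80 prior degrees of freedom) and was tested on simulated data. All 10 members are named; of each other list, up to 4 called genes per comparison. The members and lists were chosen with earlier results of these data known. The alternatives tried were a replicate block, a filter on dim genes, other scaling, variance or probe set rules, left-out arrays, fits of 2 stages and a threshold of 0.1.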

Additional observations from a re-analysis of the deposited data

How the results depend on the processing

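Leaving out 1 array left between 323 and 1977 genes called in pregnancy against pre-pregnancy (all arrays: 2494), between 114 and 528 in postpartum against pregnancy (599) and between 73 and 1582 in postpartum against pre-pregnancy (1393). The members called then numbered 0 to 2, 0 to 1 and 0 to 3. A group left with 1 array was assumed to vary like the others. In pregnancy against pre-pregnancy the fewest genes were called without pre-pregnancy replicate 1, so a loss without that array is not particular to any list. Of 34 calls in the 6 pathway lists outside the 10 (cell type markers not counted), 2 (Gpd1 in pregnancy against pre-pregnancy and Mlxipl in postpartum against pregnancy) were kept without each array, and 32 were lost without pre-pregnancy replicate 1. At an adjusted p of 0.1, 4066, 1337 and 2489 genes were called. Fitting only postpartum and pregnancy called 203 genes and 0 members. In that comparison the members called were 2 with the replicate block, 0 with the mean of probe sets, 2 at 0.1 and 2 with every probe set by itself, a setting that called 2181 genes in postpartum against pre-pregnancy.

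The replicate numbers are not known to pair the livers (correlations of same-numbered deviations 0.0285, -0.0273 and 0.111). The replicate block called 2612, 574 and 1567 genes; Lpin1 in postpartum against pregnancy gained a call (limma adjusted p = 0.0176) and Lipe (0.0532) and Ces1d (0.0566) lost theirs.

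Only a called difference could lose its call, and each had 8 other settings apart from left-out arrays. Gpam postpartum kept its call in 5 of them against pregnancy and in 6 against pre-pregnancy. Lpin1 postpartum against pre-pregnancy kept its call in 7, as did Pnpla2 in each of its called comparisons. Of 228 other settings of the members' differences, called or not, 206 kept direction and side of the threshold, 8 lost and 2 gained a call, and 12 changed sign. Those were, in pregnancy against pre-pregnancy, Lpin1 (0.043 after quantile normalization) and Lpin2 (0.14 and 0.04 by other probe sets); in postpartum against pregnancy, Lpin2 (-0.225), Dgat1 (-0.025) and Dgat2 (-0.1925 by the mean of probe sets and -0.42 by the other); and in postpartum against pre-pregnancy, Lpin2 (0.16 by the mean, 0.725 and 0.135), Dgat1 (-0.015) and Dgat2 (-0.145). Outside the members, other probe sets turned the sign of Gpd1 (-0.025 in pregnancy and -0.02 postpartum, both against pre-pregnancy), Etnk1 (0.005), Apob (-0.04 and -0.315), Surf4 (-0.3, -0.555 and -0.25; -0.041 by the mean), Gpat4 (0.185, -0.12 and 0.065) and Abhd5 in postpartum against pregnancy (0.285; 0.035 by the mean). Left-out arrays turned, in pregnancy against pre-pregnancy, Gpam (-0.27 to 0.02), Agpat2 (-0.885 to 0.095), Lpin1 (-0.225 to 0.155), Cidec (-0.085 to 0.005), Lpin3 (-0.05 to 0.19) and Pnpla3 (-3.53 to 0.25). They turned Agpat2 (-0.035 to 0.945), Lpin2 (-0.035 to 0.345), Dgat2 (-0.03 to 0.1) and Plin2 (-0.29 to 0.04) in postpartum against pregnancy, and Lpin2 (-0.225 to 0.155), Mogat1 (-0.13 to 0.24) and Gpat4 (-0.25 to 0.08) in postpartum against pre-pregnancy. The causes were not tested. Dim probe sets (Mogat1, Cidec, the second sets of Pnpla2 and Dgat1) limit what could be seen.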

Other observations

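Regulators of lipid genes were read from a list of 10. Of all genes, 5.46% rose and 8.25% fell in pregnancy against pre-pregnancy, and 2.41% rose and 0.879% fell in postpartum against pregnancy. Postpartum against pre-pregnancy 3.91% of all genes rose and 3.75% fell. In pregnancy against pre-pregnancy 3 fell and 0 rose: Srebf1, the factor behind insulin-driven fatty acid synthesis (-0.91, limma adjusted p = 0.0275), Mlxipl, the carbohydrate response factor (-0.68, 0.0141), and Cebpb (-0.605, 0.0183). Srebf1 stood at 11.89 and 11.98 before pregnancy, at 10.68 and 11.37 in pregnancy and at 11.89 and 12.07 postpartum. Mlxipl stood at 10.61 and 10.86 before pregnancy, at 10 and 10.11 in pregnancy and at 11.45 and 11.28 postpartum. Its stages did not overlap and its pregnant livers were lowest. Between any pair of stages, 50.1% to 59.6% of all genes did not overlap either. Postpartum against pregnancy Mlxipl rose (1.31 ± 0.126 SE, limma adjusted p = 0.00357), a call kept without each array in turn, and Creb3l3 fell (-0.705, 0.0346), a call lost without any 1 array (0.0506 to 0.156). Postpartum against pre-pregnancy Mlxipl (0.63, limma adjusted p = 0.0263) and Cebpa (0.54, 0.027) rose, and Cebpb (-0.96, 0.00698) and Ppara, the fatty acid oxidation receptor (-0.86, 0.00917), fell. The other Cebpb probe set gave -0.4 (limma adjusted p = 0.0917) in pregnancy and -1.085 (0.00509) postpartum, both against pre-pregnancy. The list's medians were -0.1975, 0.0425 and -0.1525. Without pre-pregnancy replicate 1 the calls against pre-pregnancy were lost for Srebf1 (limma adjusted p = 0.147), Mlxipl (0.0563 in pregnancy and 0.192 postpartum), Cebpb (0.138 and 0.0873), Cebpa (0.193) and Ppara (0.103). Without pre-pregnancy replicate 2 those of Srebf1 (0.126), Mlxipl (0.0807 and 0.0606) and Cebpa (0.0886) were lost, without pregnancy replicate 1 that of Mlxipl in pregnancy (0.0504) and without pregnancy replicate 2 that of Cebpb (0.0777). Without a postpartum array Mlxipl (0.12 and 0.0898), Cebpa (0.0609 and 0.171) and Ppara (0.0574 without replicate 2) lost their postpartum calls against pre-pregnancy.

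Genes that use diacylglycerol or phosphatidic acid for phospholipids, or load triglyceride into lipoprotein, were also listed. Over all genes, 5.46% rose and 8.25% fell in pregnancy against pre-pregnancy, and 3.91% and 3.75% postpartum against pre-pregnancy. Between postpartum and pregnancy 3.29% of all genes were called. Of 11 phospholipid genes, Chpt1, a cholinephosphotransferase (-1.23 ± 0.175 SE, limma adjusted p = 0.00608), Pcyt1a (-0.53, 0.0373) and Etnk1 (-0.505, 0.016) fell in pregnancy against pre-pregnancy. The fall of Etnk1 rests on 1 probe set, since its other 4 gave 0.005, -0.085, -0.2 and -0.1 and the mean of all gave -0.177 (limma adjusted p = 0.204). The other 3 sets of Pcyt1a gave -0.65 (limma adjusted p = 0.0126), -0.445 (0.0302) and -0.295 (0.163). Chpt1 also fell postpartum against pre-pregnancy (-0.97, limma adjusted p = 0.0202; -0.76, 0.0824, by 1 of its other 3 sets), and limma called 0 genes of the list in postpartum against pregnancy (4 at an unadjusted p under 0.05). Chka, named after its values were seen, went the other way without a call. It gave 0.88 (limma adjusted p = 0.109) in pregnancy and 1.29 (0.0511) postpartum, both against pre-pregnancy. The list's medians were -0.135 in pregnancy against pre-pregnancy, 0.235 in postpartum against pregnancy and 0.095 in postpartum against pre-pregnancy. Of 8 lipoprotein assembly genes, Tm6sf2 (0.715, limma adjusted p = 0.0307), Apob (0.58, 0.0108) and Surf4 (0.515, 0.0436) rose in pregnancy against pre-pregnancy. Other Surf4 probe sets gave 0.385 to -0.555, so its direction is not settled. Tm6sf2 (1.005, limma adjusted p = 0.0154) and Apob (0.535, 0.0208) rose postpartum against pre-pregnancy, and limma called 0 of the 8 in postpartum against pregnancy (0 at an unadjusted p under 0.05). The other Apob probe set gave -0.04 in pregnancy and -0.315 postpartum, both against pre-pregnancy. The list's medians were 0.125 in pregnancy against pre-pregnancy, -0.055 in postpartum against pregnancy and 0.05 in postpartum against pre-pregnancy. All 9 of these calls were lost without pre-pregnancy replicate 1 (limma adjusted p from 0.0744 for Chpt1 in pregnancy to 0.239 for Surf4). Those of Chpt1 and Apob in pregnancy were kept without each other array, and each of the rest was also lost without other arrays.

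Pnpla3, a droplet protein whose level in mouse liver follows feeding, was singled out after its values were seen. It stood at 10.32 and 9.48 before pregnancy, at 6.37 and 10.15 in pregnancy and at 11.94 and 11.59 postpartum. Pregnancy replicate 1 was far below all other livers. Pregnancy against pre-pregnancy gave -1.64 ± 0.989 SE (limma adjusted p = 0.299), -3.53 (0.00401) without pregnancy replicate 2 and 0.25 (0.663) without pregnancy replicate 1. Postpartum against pregnancy gave 3.505 (limma adjusted p = 0.104), 5.395 (0.00259) without pregnancy replicate 2 and 1.615 (0.0568) without pregnancy replicate 1. Postpartum against pre-pregnancy gave 1.865 (limma adjusted p = 0.32), with both postpartum livers above both earlier ones, and was called where the spread of the pregnant livers did not enter (limma adjusted p = 0.0137 with only those 2 stages, or without either pregnancy array).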
